A study of Homo sapiens with 4 samples.

Results

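The nuclear genes for the subunits of the oxidative phosphorylation complexes were compared between TK6 cells grown in simulated microgravity and in static culture. The genes were taken by symbol: NDUFA, NDUFB, NDUFC, NDUFS or NDUFV followed by a digit, SDHA to SDHD, symbols that begin with UQCR, CYC1, COX4 to COX8, and symbols that begin with ATP5. The rule took 83 of the 11415 gene symbols in the table. Of these, 78 encode subunits: 36 of complex I, 4 of complex II, 9 of complex III, 13 of complex IV and 16 of complex V. The other 5 symbols match by name only: ATP5S, ATP5SL, the readthrough transcripts ATP5J2-PTCD1 and NDUFC2-KCTD14, and the antisense RNA NDUFA6-AS1. NDUFA4 and its paralog NDUFA4L2 were placed in complex IV, where NDUFA4 is now known to sit, and so was COX7A2L, which joins complexes III and IV.

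TK6 is a human lymphoblastoid line, heterozygous at the thymidine kinase locus, that was seeded at 200000 cells per ml in High Aspect Ratio Vessel bioreactors. The vessels turned at 12 rpm for simulated microgravity or stayed still for static control, both for 48 hours, and RNA from 2 libraries per condition was sequenced. The study calls the replicates of its methylation libraries biological, and the labels and methods do not say whether the RNA duplicates were separate cultures, so every p-value here reflects the scatter among these 4 libraries, which may be technical. Rotation of a vessel on the ground is a model of weightlessness, and the conditions therefore also differ in the movement of the medium.

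Counts summed over 1 record per gene were 57481510 to 64497288 per library, and the 4 libraries were run on 1 lane. The study describes TK6 as coming from a T cell blast crisis. Of 9 B cell markers 7 were listed, at a summed 2716 to 2783 CPM in static control and 2742 to 2891 CPM in simulated microgravity, while 0 of 9 T cell markers and 0 of 6 erythroid and megakaryocyte markers were listed. Single markers of other cells were listed at low or moderate levels: ITGAM of myeloid cells at 2.26 to 3.94 CPM, COL1A1 of fibroblasts at 7.39 to 9.24 CPM and KRT8 of epithelial cells at 77.02 to 81.7 CPM. CPM scales the reads of a gene to a common library total, so it gives the share of a transcript in the RNA of the culture. In bulk RNA, fewer cells of a type and less RNA per cell cannot be told apart.

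Oxidative phosphorylation is the set of reactions in the inner mitochondrial membrane that makes ATP from the electrons of NADH and succinate. Complexes I, III and IV pass electrons to oxygen and pump protons, complex II feeds in electrons from succinate without pumping, and complex V lets the protons return and makes ATP. Each complex but the second also holds subunits encoded in mitochondrial DNA, which the rule does not take. Lymphoblastoid lines grow quickly and use both glycolysis and respiration.

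No subunit of any complex passed the test for a change between the conditions. With edgeR's quasi-likelihood test and a Benjamini-Hochberg false discovery rate (FDR) under 0.1 over all 11415 genes, 0 of the 83 symbols passed in either direction, while 126 genes (1.1%) passed in all. The lowest adjusted p among the 83 symbols was 0.661. None of the 83 had an unadjusted p under 0.05, against 8.08% of all genes tested, and the lowest was 0.0609, for COX6A1. The fitted log2 fold changes (simulated microgravity relative to static control) ran from -0.16 for COX8A to 0.14 for COX6A1. The 95% interval of every one of the 83 symbols lay within a change of 1.5-fold in either direction, and the outermost bounds were -27.5% for NDUFA4L2 and 31.3% for NDUFA6-AS1. The median standard error of a subunit's log2 fold change was 0.08.

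**Figure D1:**
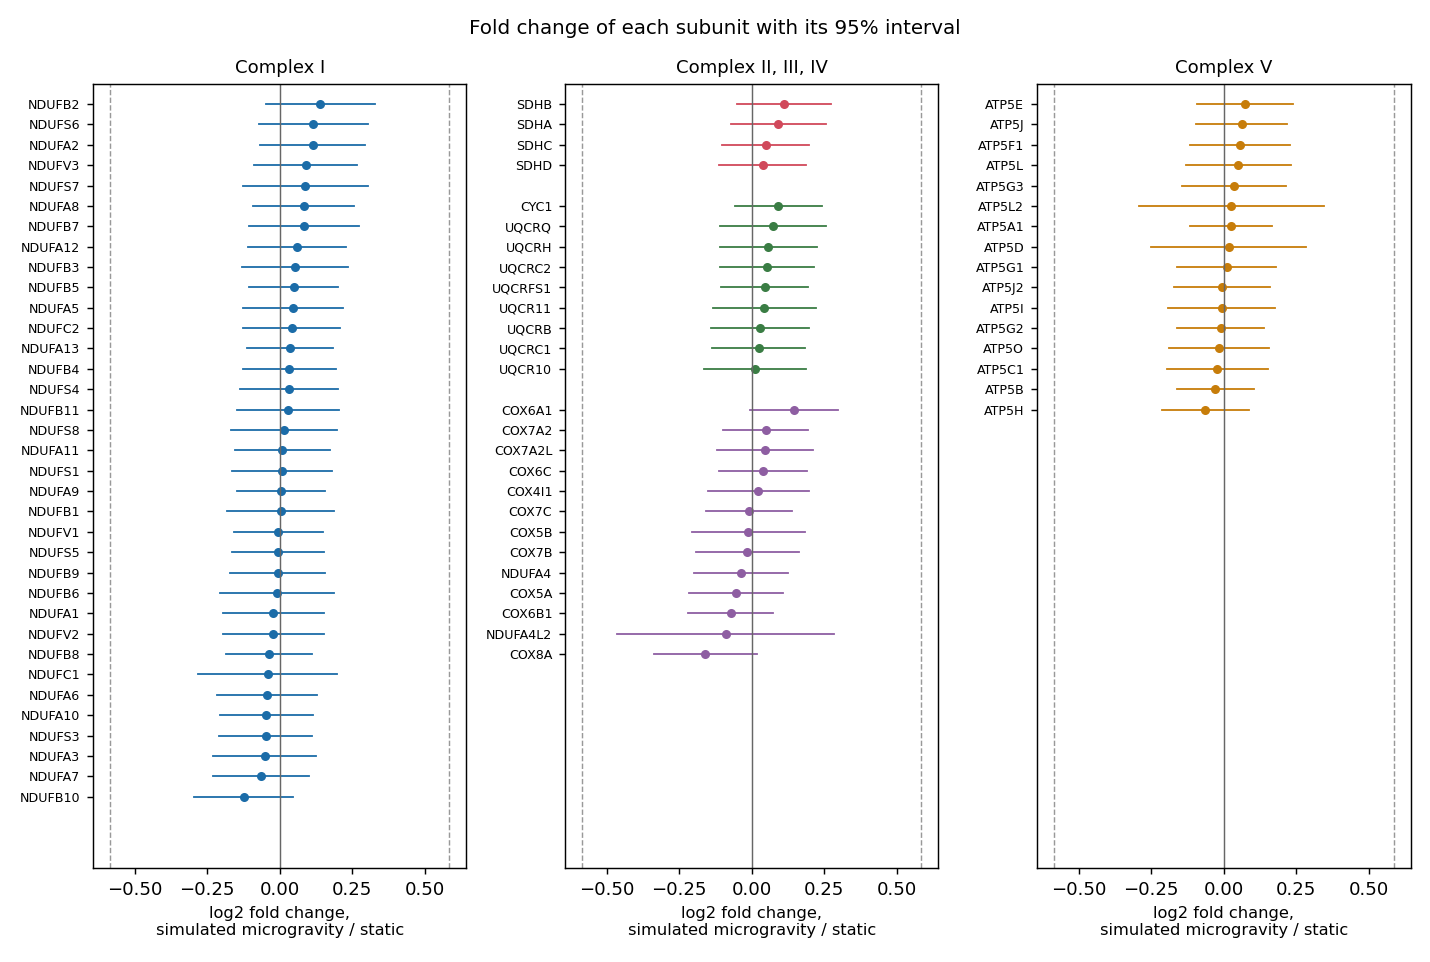
Log2 fold change between the conditions, above 0 where simulated microgravity is higher, for 77 of the 78 subunits, in order within complexes I to V, with 95% intervals as lines. The dashed lines mark a 1.5-fold change in either direction. Every interval holds 0 and none reaches a dashed line, and the widest belong to the low-level transcripts NDUFA4L2 and ATP5L2.

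The typical fold change lay close to 0 in every complex. The median log2 fold change was 0.008 over complex I, 0.07 over complex II, 0.05 over complex III, -0.01 over complex IV and 0.01 over complex V, with 0.0007 over all genes tested. Fitted values were above 0 for 52 of the 83 symbols and for 50.2% of all genes. The CPM of the 2 conditions did not overlap for 23 of the 83 symbols, against 35.9% of all genes. In 14 of these simulated microgravity was the higher, against 17.9% of all genes, and in 9 it was the lower, against 18.1%. The share of symbols apart between the conditions was thus below that of all genes. Leaving out simulated microgravity 1 raised the number of genes past the FDR from 126 to 877, leaving out simulated microgravity 2 raised it to 212, and leaving out static control 1 lowered it to 70, with 0 of the 83 symbols among them each time.

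Summed over the 78 subunits, the transcripts took 11531 and 11695 CPM in the static control libraries and 11381 and 12116 CPM in the simulated microgravity libraries. The static control values lay between the 2 simulated microgravity values. The condition means were 1.16% and 1.18% of all CPM. Complex I summed to 2797 and 2812 CPM in static control and 2739 and 2897 CPM in simulated microgravity. Complex V, with the most reads, summed to 4714 and 4834 CPM in static control and 4619 and 4971 CPM in simulated microgravity. Complex IV summed to 1605 and 1616 CPM in static control and 1569 and 1672 CPM in simulated microgravity. In these 3 complexes the simulated microgravity libraries fell on either side of the static control libraries. Complex II was the exception, with 601 and 604 CPM in static control against 632 and 638 CPM in simulated microgravity, a ratio of 1.055. Complex III summed to 1814 and 1828 CPM against 1822 and 1938 CPM. An exact permutation test of 2 libraries against 2 cannot give a two-sided p below 0.33, and no other test of the sums was run.

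**Figure D2:**
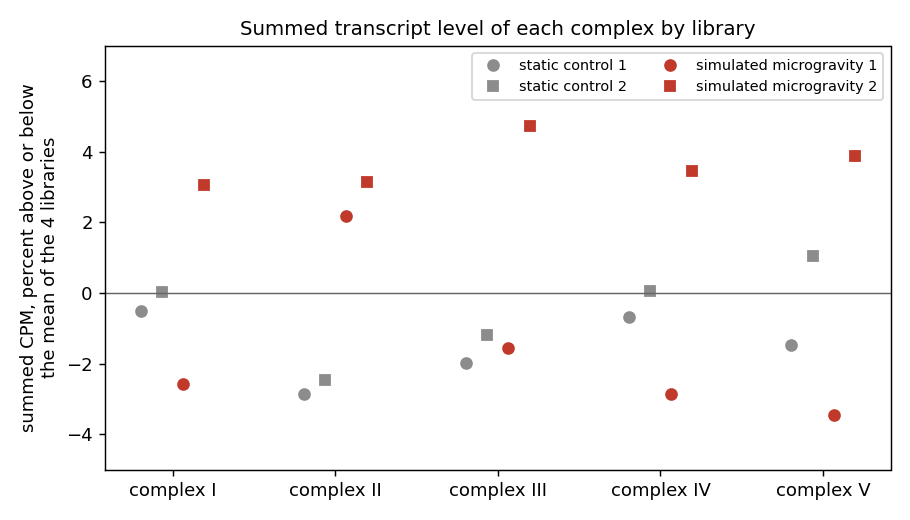
Summed CPM of each complex in each of the 4 libraries, in percent above or below the mean of the 4 libraries, with static control in grey and simulated microgravity in red. Simulated microgravity 2 is the highest library in all 5 complexes, simulated microgravity 1 is the lowest in complexes I, IV and V, and only complex II keeps both simulated microgravity libraries above both static control libraries.

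Nuclear respiratory factor 1 (NRF1), the ETS family factors that include GABP, and YY1 are known regulators of many nuclear genes for respiratory subunits, and their motifs sit close to the start of transcription. The RefSeq promoter table (GRCh38.p14, 250 bases before to 50 after the start) held a window for 64 of the 78 subunits and for 8924 of the genes tested. The letters GCGCATGC of NRF1 stood on either strand in 20.3% of the 64 windows and in 6.28% of the 8924. The ETS letters CCGGAAG stood in 29.7% and 21.3%, and the YY1 letters ATGGCGGC in 18.8% and 7.09%. A window can hold more than 1 of the 3 motifs and the matches may overlap, and 51.6% of the subunit windows held any of them against 30.8% of all. A match is only a run of letters, not a bound site. The 19 subunits with the ETS letters had log2 fold changes from -0.16 to 0.14 with a median of 0.04, and the 45 without had a median of 0.01. The 13 subunits with the NRF1 letters had a median of 0.04, with values from -0.04 to 0.14, and the 51 without had a median of 0.01. For the YY1 letters the medians were 0.02 over the 12 subunits with them and 0.02 over the 52 without. The last 100 bases before the start are shown for COX6A1 and COX8A, the subunits with the highest and the lowest log2 fold change, for SDHD of complex II and for ATP5C1 of complex V. Capitals mark the ETS letters, read here on the opposite strand, in the first 3, and the NRF1 letters, which overlap on both strands, in the last. The windows of the 2 subunits at the opposite ends of the fold changes both carry the ETS letters close to the start. They differ in the NRF1 letters, which the full window of COX6A1 holds outside the bases shown and that of COX8A does not. Whether either motif bears on the fold changes was not tested.
COX6A1 (chr12:120438013-120438112, plus strand): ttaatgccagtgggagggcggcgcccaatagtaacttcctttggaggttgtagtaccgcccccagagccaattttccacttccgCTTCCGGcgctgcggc
COX8A (chr11:63974520-63974619, plus strand): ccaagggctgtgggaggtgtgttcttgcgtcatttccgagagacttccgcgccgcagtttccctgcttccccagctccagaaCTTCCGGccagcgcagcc
SDHD (chr11:112086773-112086872, plus strand): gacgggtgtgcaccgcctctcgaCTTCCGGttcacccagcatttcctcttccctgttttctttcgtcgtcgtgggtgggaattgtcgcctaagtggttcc
ATP5C1 (chr10:7788077-7788176, plus strand): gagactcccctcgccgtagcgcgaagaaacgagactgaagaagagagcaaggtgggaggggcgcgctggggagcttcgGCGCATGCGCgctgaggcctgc

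Complex I, NADH:ubiquinone oxidoreductase, takes electrons from NADH through the N module, hands them to ubiquinone in the Q module and pumps protons in its membrane arm, the P module. Its 36 subunits had log2 fold changes from -0.12 for NDUFB10 to 0.14 for NDUFB2, and 21 were above 0. The lowest adjusted p of the complex, from edgeR, was 0.801. Of the 12 subunits whose CPM did not overlap, 7 were higher and 5 lower in simulated microgravity, and 12 of 36 is close to the 35.9% of all genes whose CPM did not overlap.

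In the N module, 6 of 8 subunits were above 0, with a median log2 fold change of 0.05. NDUFS1, the largest subunit, which carries iron-sulphur clusters, had the most reads of complex I, at 235 and 235 CPM in static control and 229 and 244 CPM in simulated microgravity. NDUFV1, which binds NADH and the flavin, stood at 172 and 159 CPM against 165 and 165 CPM. NDUFV2, its iron-sulphur partner, stood at 195 and 204 CPM against 184 and 208 CPM. The 3 electron-carrying subunits of the module overlapped between the conditions, with log2 fold changes of 0.008, -0.005 and -0.02. The accessory subunits NDUFS6, NDUFA2 and NDUFV3 had higher fitted values. NDUFS6 was at 26.0 and 25.8 CPM in static control and at 26.0 and 30.2 CPM in simulated microgravity, a log2 fold change of 0.12 (SE 0.09), and simulated microgravity 1 lay within the static control values. NDUFA2 was at 20.7 and 20.2 CPM against 21.3 and 23.0 CPM, and its edgeR adjusted p was 0.855.

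In the Q module, 4 of 8 subunits were above 0, with a median log2 fold change of -0.02. NDUFS3, a structural core subunit, was measured at 66.9 and 67.4 CPM in static control and 63.0 and 66.9 CPM in simulated microgravity. NDUFS8, an iron-sulphur subunit, was measured at 32.0 and 29.4 CPM against 29.5 and 32.5 CPM. Both overlapped between the conditions, with log2 fold changes of -0.05 and 0.02. NDUFS7, which carries the last iron-sulphur cluster before ubiquinone, was at 39.1 and 31.5 CPM in static control and 34.7 and 40.3 CPM in simulated microgravity. Its 2 static control libraries were 0.31 apart on the log2 scale, more than the 0.09 between the conditions.

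The 20 accessory subunits of the P module held both ends of the complex, with 11 above 0 and a median of 0.007. NDUFB2 was at 20.2 and 21.2 CPM in static control and 21.6 and 24.1 CPM in simulated microgravity, a fitted change of 10.2% with a 95% interval from -3.17% to 25.5%. NDUFB10 was at 27.4 and 28.3 CPM against 25.5 and 25.6 CPM, a fitted change of -8.25% with an interval from -18.5% to 3.32%. Neither passed the FDR, and the conditions did not overlap for either. NDUFC1, with the fewest reads of complex I, was at 11.5 and 10.5 CPM in static control and 9.70 and 11.7 CPM in simulated microgravity. NDUFC2, its partner in the membrane arm, was at 56.8 and 61.1 CPM against 58.7 and 62.6 CPM. The readthrough NDUFC2-KCTD14, whose record shares exons and so reads with NDUFC2, had 50.9 and 54.0 CPM against 52.4 and 55.6 CPM, and its log2 fold change of 0.04 was that of NDUFC2.

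Complex II, succinate dehydrogenase, is also an enzyme of the citric acid cycle, and all of its subunits are nuclear. All 4 had log2 fold changes above 0, from 0.04 to 0.11, and none passed the FDR. SDHB, the iron-sulphur subunit, was at 176 and 182 CPM in static control and at 186 and 200 CPM in simulated microgravity, a fitted change of 7.91% with a 95% interval from -3.55% to 20.7% and an edgeR adjusted p of 0.846. SDHA, the flavoprotein that oxidises succinate, was at 178 and 167 CPM against 193 and 175 CPM. The conditions were apart for SDHB and overlapped for SDHA. SDHC, a membrane anchor, was at 107 and 114 CPM in static control and 114 and 114 CPM in simulated microgravity. SDHD, the other anchor, was at 140 and 141 CPM against 139 and 149 CPM. SDHC was barely apart and SDHD overlapped, so 2 of the 4 subunits, and the sum over the complex, were apart, with 35.9% of all genes apart. Leaving out simulated microgravity 2 left 3 of the 4 above 0.

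Complex III, ubiquinol:cytochrome c oxidoreductase, passes electrons from ubiquinol to cytochrome c through the Rieske protein UQCRFS1 and cytochrome c1, CYC1. All 9 nuclear subunits had log2 fold changes above 0, from 0.01 for UQCR10 to 0.09 for CYC1, and the lowest edgeR adjusted p was 0.863. Without simulated microgravity 2, 5 of the 9 were above 0 and the median of the complex was 0.007. CYC1 was at 147 and 139 CPM in static control and 150 and 155 CPM in simulated microgravity, with a fitted change of 6.60% (95% interval -3.87% to 18.2%). UQCRFS1 was at 142 and 135 CPM against 140 and 146 CPM. UQCRC2, a core protein with the most reads of the complex, was at 521 and 540 CPM against 538 and 561 CPM. Only CYC1 of these was apart between conditions. UQCR10, with the fewest reads, was at 30.8 and 30.9 CPM in static control and 29.6 and 32.6 CPM in simulated microgravity. UQCRH, the acidic hinge subunit, was at 186 and 199 CPM against 193 and 207 CPM, and its retrogene UQCRHL was not among the listed symbols. In all 9 subunits simulated microgravity 2 was above simulated microgravity 1.

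Complex IV, cytochrome c oxidase, reduces oxygen around a catalytic core made in the mitochondrion, and its nuclear subunits adjust activity and assembly. It held the highest and the lowest log2 fold change of all subunits, and 5 of its 13 members were above 0. COX6A1, the form of subunit 6A found outside heart and muscle, was at 156 and 156 CPM in static control and 167 and 178 CPM in simulated microgravity. Its fitted change was 10.6% with a 95% interval from -0.51% to 22.9% and an edgeR adjusted p of 0.661. COX8A, a small subunit of the membrane part, was at 56.4 and 49.5 CPM against 46.6 and 48.1 CPM. Its fitted change was -10.5% with an interval from -20.8% to 1.21% and an edgeR adjusted p of 0.701. Both were apart between the conditions, in opposite directions, and neither passed the FDR. In COX8A the 2 static control libraries were 0.19 apart on the log2 scale, more than the 0.16 fitted between the conditions.

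COX4I1 and COX5A belong to the first assembly step of complex IV. COX4I1, with the most reads of the complex, was at 300 and 307 CPM in static control and 304 and 313 CPM in simulated microgravity. COX5A was at 84.7 and 84.5 CPM against 77.4 and 85.6 CPM. COX6B1, which faces the intermembrane space, was at 143 and 147 CPM against 139 and 137 CPM, a log2 fold change of -0.07. COX4I1 and COX5A overlapped between the conditions, and COX6B1 was lower in both simulated microgravity libraries by less than the interval of its difference, -0.22 to 0.08. COX7B was at 217 and 212 CPM against 199 and 226 CPM. The paralogs COX7A2 and COX7A2L had log2 fold changes of 0.05 and 0.05, with 131 and 133 CPM against 135 and 138 CPM for COX7A2 and 90.7 and 96.7 CPM against 91.3 and 102 CPM for COX7A2L. The tissue or testis forms COX4I2, COX6A2, COX6B2, COX7A1, COX7B2 and COX8C were not among the listed symbols. Every listed record reached about 1 CPM or more in some library.

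NDUFA4 and NDUFA4L2 are paralogs, and NDUFA4L2 is known as a gene induced in low oxygen. NDUFA4 was at 121 and 120 CPM in static control and 110 and 126 CPM in simulated microgravity. NDUFA4L2, with the fewest reads of all subunits, was at 2.73 and 2.35 CPM against 2.34 and 2.43 CPM, from 136 to 166 reads a library. Both overlapped between conditions, and the 95% interval of the change of NDUFA4L2 ran from -27.5% to 21.8%.

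Complex V, ATP synthase, turns a ring of c subunits in the membrane to drive catalysis in its F1 head. Its 16 members had log2 fold changes from -0.06 for ATP5H to 0.07 for ATP5E, the narrowest range among complexes I, IV and V, with 9 above 0. ATP5B, the catalytic beta subunit, with the most reads of all subunits, was at 1193 and 1232 CPM in static control and 1151 and 1225 CPM in simulated microgravity, a log2 fold change of -0.03 whose 95% interval ran from -10.6% to 7.42% in percent change. ATP5A1, the alpha subunit, was at 888 and 931 CPM against 911 and 939 CPM. ATP5C1, the gamma subunit that turns within the head, was at 422 and 432 CPM against 398 and 443 CPM. All 3 overlapped between the conditions. The small head subunit ATP5D was at 11.1 and 9.14 CPM in static control and 9.11 and 11.4 CPM in simulated microgravity. ATP5E was at 112 and 116 CPM against 112 and 129 CPM. For ATP5D the gap between libraries exceeded the difference between the conditions in static control and in simulated microgravity. For ATP5E it did so in simulated microgravity only.

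The c ring is made from ATP5G1, ATP5G2 and ATP5G3, which encode 1 mature protein. ATP5G1 was at 178 and 172 CPM in static control and 164 and 189 CPM in simulated microgravity. ATP5G2 was at 115 and 111 CPM against 114 and 111 CPM. ATP5G3 was at 195 and 209 CPM against 194 and 220 CPM. The log2 fold changes of the 3 genes were 0.01, -0.01 and 0.03, and none was apart. In the peripheral stalk, ATP5H was at 116 and 124 CPM in static control and at 115 and 115 CPM in simulated microgravity. Its interval ran from -0.21 to 0.09. It was the only 1 of the 16 members of complex V whose libraries were apart, while 35.9% of all genes were apart. ATP5L2, a paralog of the membrane subunit ATP5L, had the fewest reads of the complex, at 4.54 and 3.85 CPM against 4.59 and 3.96 CPM.

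Among the 5 symbols that are not subunits, ATP5SL and ATP5S lay at the ends. ATP5SL, whose protein is needed to assemble the membrane arm of complex I, was at 27.1 and 27.7 CPM in static control and 30.1 and 30.4 CPM in simulated microgravity, with a log2 fold change of 0.14 (SE 0.08, edgeR adjusted p 0.743). ATP5S was at 10.2 and 11.4 CPM against 10.1 and 9.77 CPM, with a log2 fold change of -0.12 (SE 0.11). Each was apart by library and neither passed the FDR. ATP5J2-PTCD1 was at 189 and 165 CPM against 178 and 177 CPM, close to ATP5J2 at 160 and 137 CPM against 149 and 147 CPM, with which its record shares reads. NDUFA6-AS1 was at 2.89 and 2.84 CPM against 2.72 and 3.17 CPM, and whether reads were counted by strand is not given in the sources used here.

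Levels of different subunits can be compared only per length. On the CPM per kilobase scale, over the 73 subunits with a matched transcript, levels ran from 2.08 for NDUFA4L2 to 682 for ATP5B, with a median of 86.2. ATP5O, ATP5F1 and ATP5A1 followed ATP5B at 535, 497 and 472 CPM per kilobase, and COX4I1 led complex IV at 427. ATP5L2 at 5.30 and ATP5D at 10.2 stood just above NDUFA4L2. Complex V had the highest median, 183, and complex I the lowest, 64.2. These levels are approximate. Of the 78 subunits, 47 have processed pseudogenes named after them, 182 copies in all, and reads with multiple alignments were removed before counting.

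For most subunits, as for most genes, the larger gap between the 2 libraries of a condition exceeded the fitted difference between the conditions. Simulated microgravity 2 was above simulated microgravity 1 for 66 of the 78 subunits (84.6%), against 48.3% of all genes. The same held for 37 of 48 assembly factors, 12 of 15 regulators and 7 of 8 carriers and modulators, but for only 7 of 14 citric acid cycle genes. Over 10247 genes the ratio of these 2 libraries had Spearman's rho of -0.29 with transcript length and 0.18 with mean CPM. Over 73 subunits these were -0.05 and -0.09. The part of length and level was not tested. The median log2 ratio of simulated microgravity 2 to 1 was 0.10 over the subunits and -0.007 over all genes, and it reached 0.15 over complex V. The 2 static control libraries had a median log2 ratio of -0.01 over the subunits. In 66 of the 78 subunits the larger gap within a condition exceeded the gap between the conditions, as it did in 8694 of the 11415 genes. The larger of 2 gaps between single libraries tends to exceed a difference of means, so this count does not weigh scatter against the conditions. The direction of the median depended on the library left out: with simulated microgravity 1 left out the median over all subunits was 0.06 and 61 of 78 were above 0, and with simulated microgravity 2 left out it was -0.04 and 26 of 78 were above 0. In neither case did a subunit pass the FDR.

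**Figure D3:**
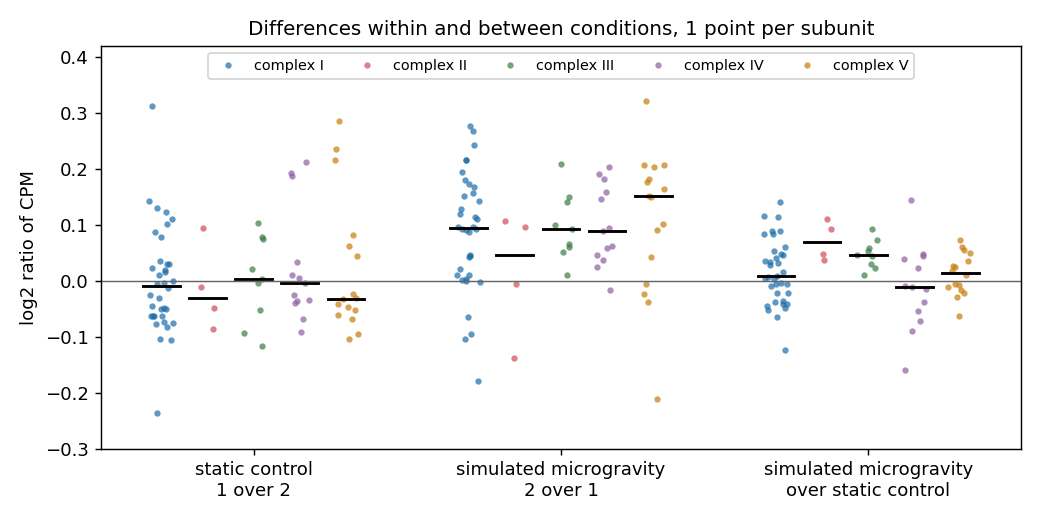
Log2 ratios of CPM between the 2 static control libraries, between the 2 simulated microgravity libraries and between the conditions, with 1 point per subunit, coloured by complex, and a black bar at the median of each complex. The points of simulated microgravity 2 over 1 lie mostly above 0, with complex V highest at a median of 0.15. Over all subunits the median absolute ratio was 0.04 between the conditions, 0.06 in static control and 0.10 in simulated microgravity. In complexes II, III and IV the median bar of static control lies nearer 0 than the bar between the conditions.

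The gap between the static control libraries went with base composition. Over the 73 subunits with a matched transcript, the log2 ratio of static control 1 to static control 2 correlated with the GC content of the transcript at Pearson's r = 0.61 and Spearman's rho = 0.58, and over 10247 genes at 0.54 and 0.60. These correlations run across genes that share the same pair of libraries, and they are a description. The GC-rich transcripts NDUFS7 (68.7% GC) and ATP5D (69.5% GC) were higher in static control 1 by 0.31 and 0.29 on the log2 scale. Among the 36 subunits with a GC content above the median of 49.5%, 23 were higher in static control 1, and among the other 37 subunits 8 were. The fold change between conditions had r = -0.07 with GC content over the subunits, and the ratio of simulated microgravity 2 to 1 had r = -0.10. The part of GC content in single fold changes was not tested.

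**Figure D4:**
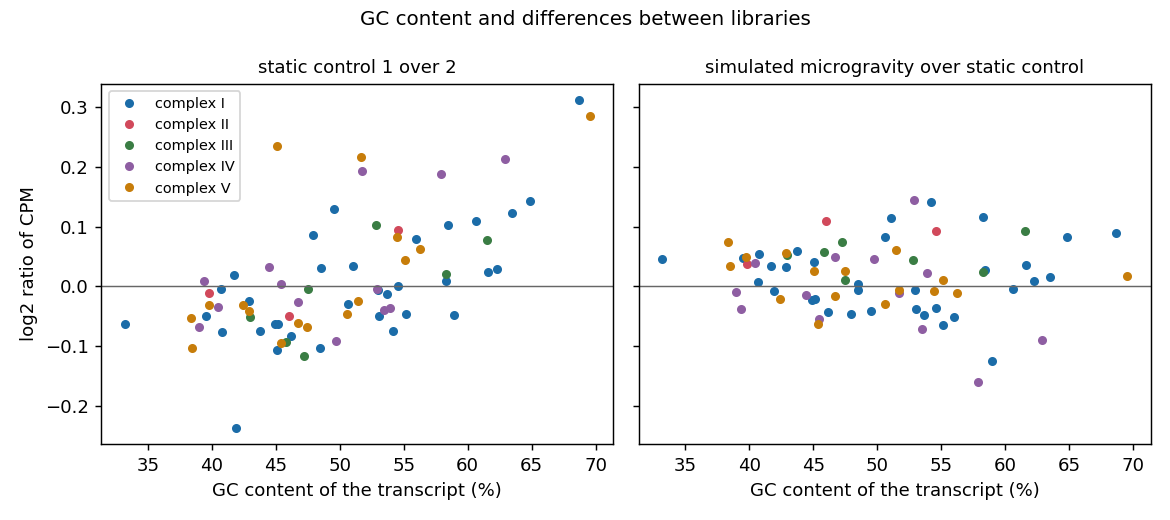
GC content of the matched transcript, in percent, against the log2 ratio of static control 1 to 2 (left) and of simulated microgravity to static control (right), with 1 point per subunit (n = 73), coloured by complex. The left points climb with GC content (r = 0.61) and the right points do not (r = -0.07).

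In the 4 lists of genes around the complexes, no gene passed the FDR. The list of assembly factors held 65 symbols, some of them older names of a gene also listed under its current name. Of these symbols 48 were measured, and 0 passed the FDR in either direction, with a median log2 fold change of 0.02. The smallest p-values were those of ECSIT, NDUFAF4, TMEM126B and COX20. ECSIT, a complex I assembly factor, was at 35.5 and 31.4 CPM in static control and 38.6 and 38.1 CPM in simulated microgravity, with a log2 fold change of 0.20. NDUFAF4 was at 37.4 and 36.1 CPM against 38.4 and 46.1 CPM, and TMEM126B at 57.3 and 61.0 CPM against 62.6 and 72.1 CPM. Simulated microgravity 2 was the highest library in both. COX20, a chaperone of complex IV assembly, was at 104 and 105 CPM against 101 and 82.96 CPM, with a log2 fold change of -0.19. These 4 were the only assembly factors with an unadjusted edgeR p under 0.05, 4 of 48 against 8.08% of all genes, and their adjusted p-values ran from 0.540 to 0.584. Without simulated microgravity 1, 4 assembly factors passed the FDR, COX16, COX20, NDUFAF4 and TMEM126B, while 877 genes did in all.

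Of 16 listed regulators of respiratory gene expression 15 were measured, and 0 passed the FDR. ESRRA, a nuclear receptor that drives respiratory genes, was at 21.4 and 20.5 CPM in static control and 23.6 and 26.3 CPM in simulated microgravity, with a log2 fold change of 0.25 (SE 0.09) and an edgeR adjusted p of 0.334. TFB1M, a methyltransferase of mitochondrial ribosomal RNA, was at 53.3 and 50.8 CPM against 45.2 and 45.8 CPM, with a log2 fold change of -0.19 (SE 0.08) and an edgeR adjusted p of 0.493. Both were apart between the conditions, and they were the only regulators with an unadjusted edgeR p under 0.05, 2 of 15 against 8.08% of all genes. Without simulated microgravity 1, a fit with 1 library in that condition, ESRRA had a log2 fold change of 0.33. GABPB1, the partner of the ETS factor GABPA, was at 52.3 and 55.1 CPM against 56.9 and 61.5 CPM. NRF1 itself had a log2 fold change of 0.06 and TFAM, which packages mitochondrial DNA, 0.07.

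All 14 citric acid cycle genes of the list were measured, and 0 passed the FDR. The smallest p-values were those of OGDH and SUCLA2, with log2 fold changes of 0.11 and 0.11 and the lowest edgeR adjusted p at 0.816. Of 9 listed symbols of carriers and modulators 8 were measured, and 0 passed. The symbol not measured, MCJ, is another name of DNAJC15, which was. HIGD2A, a factor of complex IV and supercomplexes, had a log2 fold change of 0.11 and ATPIF1, the inhibitor of ATP synthase, one of -0.10. USMG5 in this list and C14orf2 among the assembly factors encode small membrane subunits of ATP synthase that the symbol rule does not reach. USMG5 was at 75.9 and 79.7 CPM in static control and 77.03 and 88.0 CPM in simulated microgravity, and C14orf2 at 105 and 110 CPM against 94.5 and 111 CPM. Like most subunits of complex V, both were higher in simulated microgravity 2 than in simulated microgravity 1.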

How the data were processed

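RNA of 4 TK6 libraries was measured. The authors aligned reads to hg19 with TopHat (TopHat2 2.0.8 in the submitters' processing notes, another version in the methods), discarded multi-mapped reads and counted the rest with Bamutils. The deposited counts are whole numbers per RefSeq record, not normalized. The deposited CPM values, and the authors' log2 fold changes, mean log2 CPM, p-values and FDR of their own comparison, were not used. The table lists 22375 records, each at about 1 CPM or more in some library, and records of a gene share reads.

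Each symbol was represented by its record of highest mean count (11415 genes; 34 of the 83 symbols have more than 1 record, at most 7). The test was edgeR's quasi-likelihood test (edgeR 4.0.16, R 4.3.3) after TMM scaling and filterByExpr, which removed 0 genes, at a Benjamini-Hochberg FDR under 0.1, simulated microgravity against static control, 2 libraries each. CPM values are TMM-scaled. Intervals are at 95% from the test's standard error and cover these libraries only. The biological coefficient of variation was 6.77%. The duplicates differed by more than counting error (chi-square per degree of freedom 19.6 and 22.4). Fits were tested on simulated data. Alternatives were DESeq2 1.42.0, limma 3.58.1 (voom), other scalings, filters and records, a replicate block and leaving out each library.

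Lengths and GC content come from the GENCODE transcript (hg19) whose ends lay within 1000 bases of the counted record. Promoter sequences are from RefSeq, GRCh38.p14, and matched 67 of the 83 symbols. The symbols, lists and tests were chosen with earlier results of these data known. The genes named are those with the extreme fold changes and levels of each complex, the core electron-carrying and catalytic subunits, paralog sets, symbols that are not subunits and the smallest p-values of each list. The following were named outside it, with their values already seen: NDUFS6, NDUFA2, NDUFV3, NDUFC2, ATP5L, ATP5J2, ATP5O, ATP5F1, ATP5D, COX16, COX20, C14orf2, NRF1 and TFAM. A few values that the rule takes are not reported here.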

Additional observations from a re-analysis of the deposited data

How the results depend on the processing

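The number of the 83 symbols past the FDR stayed at 0 under each alternative run on all 4 libraries. Brackets give the number with an unadjusted p under 0.05. The alternatives were DESeq2's Wald test (1), limma-voom (0), robust edgeR (0), DESeq2 size factors (0) and library sizes without TMM (1). Also run were a mean CPM of at least 5 (80 symbols tested, 0), the record listed first (0) and the replicate block (1). Running no filter repeated the main fit, because filterByExpr removed 0 genes. With 0 symbols under an FDR of 0.1, the 0 under 0.05 was fixed in advance, so neither is a further check. In the settings with a count in brackets, 5.76% to 9.39% of all genes had an unadjusted p under 0.05. These counts do not cover the fits with a library left out, which have 1 library in a condition. With simulated microgravity 1 left out, the log2 fold changes of the 83 symbols ran from -0.14 to 0.22. All 154 records of the symbols, in a fit over 22375 records added after the data were seen, gave 0 past the FDR as well. Same-numbered libraries deviated together with a correlation of 0.08 over genes, so the numbers were not taken as a pairing. The replicate block gave 96 genes past the FDR in place of 126 and changed no other call.

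Leaving out 1 library moved the number of genes past the FDR between 70 and 877 and the number of assembly factors past it between 0 and 4. It moved the median log2 fold change between -0.0405 and 0.0539 for complex I, 0.0532 and 0.0688 for complex II, 0.00712 and 0.0914 for complex III, -0.0634 and 0.0566 for complex IV, -0.0474 and 0.0732 for complex V and -0.0351 and 0.0606 for all subunits. The cause was not tested. Of 894 values of 69 genes under alternatives, 889 stayed on the same side of the threshold and 5 passed it, NDUFAF4, TMEM126B, COX16, COX20 and ESRRA without simulated microgravity 1. The sign turned in 51 of the 894 values. Most of these alternatives used the same 4 libraries, so the count does not measure how stable the signs are between libraries. Of the 78 subunits, 48 were above 0 in the main fit, 61 without simulated microgravity 1 and 26 without simulated microgravity 2. The summed CPM of complex II stayed apart between conditions under all 4 scalings and record choices run (ratios 1.055 to 1.061), and that of complex III became apart without TMM (ratio 1.038). NDUFA4L2 and ATP5L2 have the fewest reads and the widest intervals.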
